A study of Mus musculus with 6 samples.

Results

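The genes described here are 9 of the NRF2 antioxidant system in melan-a cells, an immortal line of mouse melanocytes (pigment cells). They are Nfe2l2, which encodes NRF2, Keap1, Hmox1, Nqo1, Gclc, Gclm, Srxn1, Txnrd1 and G6pdx, and every probe set that the platform annotation pairs with one of these symbols was taken. A probe set is a group of oligonucleotides on this kind of array that are read together for a transcript. Some, among them the brightest of Gclc and of Srxn1, are marked by their names as matching several transcripts. Of the 9 genes, 8 had a probe set, 17 in all, out of 18193 genes and 45101 probe sets on the array. No probe set named G6pdx was in the annotation used here, so that gene has no value below.

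All cultures are of that 1 line and hold delta-BRAF-ER, a construct through which tamoxifen activates the kinase BRAF. There are 6 groups of 1 array: activated BRAF with ZEB2, with SNAIL2, with TWIST1 and with ZEB1, activated BRAF alone (BRAF-on), and BRAF not activated (BRAF-off). ZEB2, SNAIL2, TWIST1 and ZEB1 are transcription factors of embryonic development, and the study asked how each bears on the genes that respond to BRAF. No group is labelled as tamoxifen without the construct, so an effect of the drug cannot be told apart from BRAF activation. Of 9 readable probe sets for the 4 factors none passed 2-fold upward over BRAF-on on its own factor's array (log2 ratios of -1.51 to 0.77), and whether they cover the introduced sequences is not given. The wording with ZEB1, and likewise for the others, therefore means the array labelled ZEB1. Dose, hours of treatment and the promoter that drove each factor are not given in the sources used here. With no second array in any group there is no estimate of spread and no test, and each fold below describes 2 arrays.

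NRF2 is a transcription factor that is held in the cytoplasm by KEAP1, an adaptor that hands it to a ubiquitin ligase for destruction. Oxidants and electrophiles modify KEAP1, NRF2 then accumulates, pairs with a small MAF protein and binds the antioxidant response element (ARE) in the promoters of its targets. NRF2 is controlled largely as a protein, so the level of Nfe2l2 mRNA does not measure its activity. Melanocytes handle reactive quinones and hydrogen peroxide as by-products of melanin synthesis, and the targets here make glutathione (Gclc, Gclm), reduce thioredoxin and peroxiredoxins (Txnrd1, Srxn1), break down haem (Hmox1) or reduce quinones (Nqo1).

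Promoter windows of 4 members are shown because each holds letters of the ARE and because the arrays give these genes unlike directions. Each window runs from 250 bases before to 50 bases after the gene's start, from RefSeq on build GRCm38.p6, and is printed 5′ to 3′ on the gene's own strand. Capitals mark a match to TGACNNNGC on either strand. The match reads as TGACNNNGC in the Nfe2l2 window and on the opposite strand in the other windows.
Nfe2l2, chr2:75704614-75704913, minus strand: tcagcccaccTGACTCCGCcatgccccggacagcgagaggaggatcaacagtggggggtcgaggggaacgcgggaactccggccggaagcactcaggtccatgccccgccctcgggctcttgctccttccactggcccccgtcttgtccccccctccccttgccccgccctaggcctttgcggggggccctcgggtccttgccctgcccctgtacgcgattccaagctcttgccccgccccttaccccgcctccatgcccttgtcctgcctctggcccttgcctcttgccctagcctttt
Gclm, chr3:122245307-122245606, plus strand: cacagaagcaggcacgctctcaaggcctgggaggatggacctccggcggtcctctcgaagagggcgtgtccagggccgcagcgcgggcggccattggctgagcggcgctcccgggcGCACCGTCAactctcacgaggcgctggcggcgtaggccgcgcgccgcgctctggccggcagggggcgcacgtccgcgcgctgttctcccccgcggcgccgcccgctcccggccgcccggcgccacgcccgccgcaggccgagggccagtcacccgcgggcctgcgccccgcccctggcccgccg
Srxn1, chr2:152105274-152105573, plus strand: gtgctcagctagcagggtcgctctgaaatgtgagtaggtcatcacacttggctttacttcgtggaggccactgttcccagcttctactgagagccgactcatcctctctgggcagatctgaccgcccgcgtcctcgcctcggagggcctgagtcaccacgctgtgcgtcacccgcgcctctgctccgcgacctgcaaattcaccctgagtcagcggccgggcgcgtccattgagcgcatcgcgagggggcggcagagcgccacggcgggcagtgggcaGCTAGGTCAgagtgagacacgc
Txnrd1, chr10:82858956-82859255, plus strand: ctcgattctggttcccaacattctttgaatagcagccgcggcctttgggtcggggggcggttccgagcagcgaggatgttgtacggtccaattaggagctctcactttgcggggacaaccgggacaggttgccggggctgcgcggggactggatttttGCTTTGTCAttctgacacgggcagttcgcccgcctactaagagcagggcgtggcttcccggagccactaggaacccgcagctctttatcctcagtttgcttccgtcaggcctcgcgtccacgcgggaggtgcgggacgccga
The match begins 240 bases before the start in Nfe2l2, 134 before it in Gclm and 92 before it in the printed Txnrd1 window, and 29 bases into the transcript in Srxn1. Windows were found for 7 of the 9 members. Of these 7 genes, 5 held the letters in at least 1 window (71.4%), G6pdx being the other one, against 14.0% of the 27025 genes with a window. Txnrd1 has further windows, not printed, that held no match. By window the share was 5 of 9 (55.6%), against 12.4% of 32851 windows. The members were listed beforehand as NRF2 genes, so this contrast is no test. The Keap1 and Nqo1 windows held no such letters, which says nothing of binding there. The AP-1 letters TGACTCA, searched on both strands, stood in the Srxn1 window at 2 places, 102 and 45 bases before the start. Neither overlapped a match to TGACNNNGC, the only form of the ARE searched. Of all genes 5.95% held the AP-1 letters, and no other member's window did. These matches are letters in a window, not sites shown to be bound.

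All arrays were scaled by the authors to a common mean. The floor used here was 63.7 signal units, the median of all values, and between 10611 (BRAF-off) and 11269 (with ZEB1) of the 18193 genes reached it. The array labelled SNAIL2 stood apart in the control transcripts added before amplification, whose 27 probe sets had a geometric mean signal of 442 there, 267 with ZEB2, 172 with TWIST1 and 283 with ZEB1, against 191 in BRAF-on and 219 in BRAF-off. Its 3′ over 5′ signal ratios for Actb (1.44) and Gapdh (0.839) were within the range of the other arrays, 1.36 to 1.54 and 0.792 to 0.839. Of 8 melanocyte markers all reached the floor on every array except that labelled TWIST1, where Tyr, Tyrp1, Dct, Pmel and Mlana did not. These are values of whole cultures, in which fewer cells of a type and less RNA per cell cannot be told apart.

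By brightest probe set, the factor and its sensor had the narrowest spans of the members. Nfe2l2, by its brightest probe set, read 4525 signal units with ZEB2, 3833 with SNAIL2, 3669 with TWIST1 and 5143 with ZEB1, against 3896 in BRAF-on and 3965 in BRAF-off. The array with ZEB1 was the highest and that with TWIST1 the lowest, 1.40-fold apart. Keap1 read 1143 with ZEB2, 971 with SNAIL2, 981 with TWIST1 and 1241 with ZEB1, against 1005 in BRAF-on and 1050 in BRAF-off. Its span was 1.28-fold, and no step between neighbours in its order exceeded 1.09-fold. By these probe sets both genes were at their highest with ZEB1, at log2 ratios to BRAF-on of 0.40 for Nfe2l2 and 0.30 for Keap1. The dimmer probe set of Nfe2l2, which lay between 58.6 and 92.1, gave -0.18 there, so its direction was not shared. A second Keap1 probe set was at 111 with TWIST1 against 191 in BRAF-on (log2 ratio -0.78), where the brighter one was at -0.04. This second one spanned 2.06-fold and was highest with SNAIL2, at 230.0.

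Gclc and Gclm were both lowest with ZEB1. Gclc encodes the catalytic subunit of glutamate-cysteine ligase, the first and rate-limiting enzyme of glutathione synthesis, and Gclm its modifier subunit. Gclc read 1815 with ZEB2, 1796 with SNAIL2, 1141 with TWIST1 and 733 with ZEB1, against 1415 in BRAF-on and 1559 in BRAF-off. The array with ZEB1 lay 1.56-fold under that with TWIST1, the largest step in the order of Gclc. A second Gclc probe set, at 689 with ZEB1 against 1124 in BRAF-on and 1225 in BRAF-off, had the same lowest array. Gclm read 2340 with ZEB2, 2640 with SNAIL2, 2828 with TWIST1 and 1789 with ZEB1, against 2436 in BRAF-on and 3130 in BRAF-off. Its second probe set read 624, 527, 482 and 311 on the 4 arrays with a factor in that order, against 477 in BRAF-on and 635 in BRAF-off. Both Gclm probe sets were highest in BRAF-off and lowest with ZEB1. Gss, which encodes glutathione synthetase, the next enzyme of the path and not one of the 9 genes, was highest there, at 537 with ZEB1 against 346 in BRAF-on and 386 in BRAF-off.

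Srxn1 stood on the opposite side. It encodes sulfiredoxin, which restores over-oxidised peroxiredoxins. Its brightest probe set read 1338 with ZEB2, 1462 with SNAIL2, 1740 with TWIST1 and 2596 with ZEB1, against 1704 in BRAF-on and 1410 in BRAF-off. A second read 466, 507, 809 and 1249 with the factors in that order, against 704 in BRAF-on and 452 in BRAF-off. A further one read 308, 292, 429 and 844, against 287 in BRAF-on and 261 in BRAF-off. All 4 Srxn1 probe sets, the dimmest one included (187 with ZEB1 against 133 in BRAF-on), were highest with ZEB1, at 1.52-fold, 1.77-fold, 2.94-fold and 1.40-fold over BRAF-on. The dimmest reached the floor on 3 arrays only, and the order of the other arrays differed among the 4.

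Txnrd1, the cytosolic thioredoxin reductase, read 5872 with ZEB2, 6088 with SNAIL2, 5231 with TWIST1 and 4416 with ZEB1, against 6654 in BRAF-on and 6056 in BRAF-off. With ZEB1 it was the lowest, as Gclc and Gclm were, and 1.51-fold under BRAF-on. Its 2 other probe sets lay near or under the floor, between 51.7 and 101 and between 9.09 and 35.6, and carry little weight. The brighter of these did not share the order and was lowest with TWIST1. It was at 70.9 with ZEB1, against 78.7 in BRAF-on and 65.5 in BRAF-off.

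Hmox1 encodes haem oxygenase-1, which opens the haem ring and frees iron, and has 1 probe set. Its signal was 559 with ZEB2, 655 with SNAIL2, 465 with TWIST1 and 754 with ZEB1, against 759 in BRAF-on and 887 in BRAF-off. BRAF-off was the highest array, and that with TWIST1 the lowest. Nqo1, a quinone reductase and a much used readout of NRF2, was at 54.8 with ZEB2, 23.8 with SNAIL2, 86.6 with TWIST1 and 58.6 with ZEB1, against 42.3 in BRAF-on and 45.1 in BRAF-off. It reached the floor on 1 array only, that with TWIST1, so the rest of its order is not readable.

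**Figure D1:**
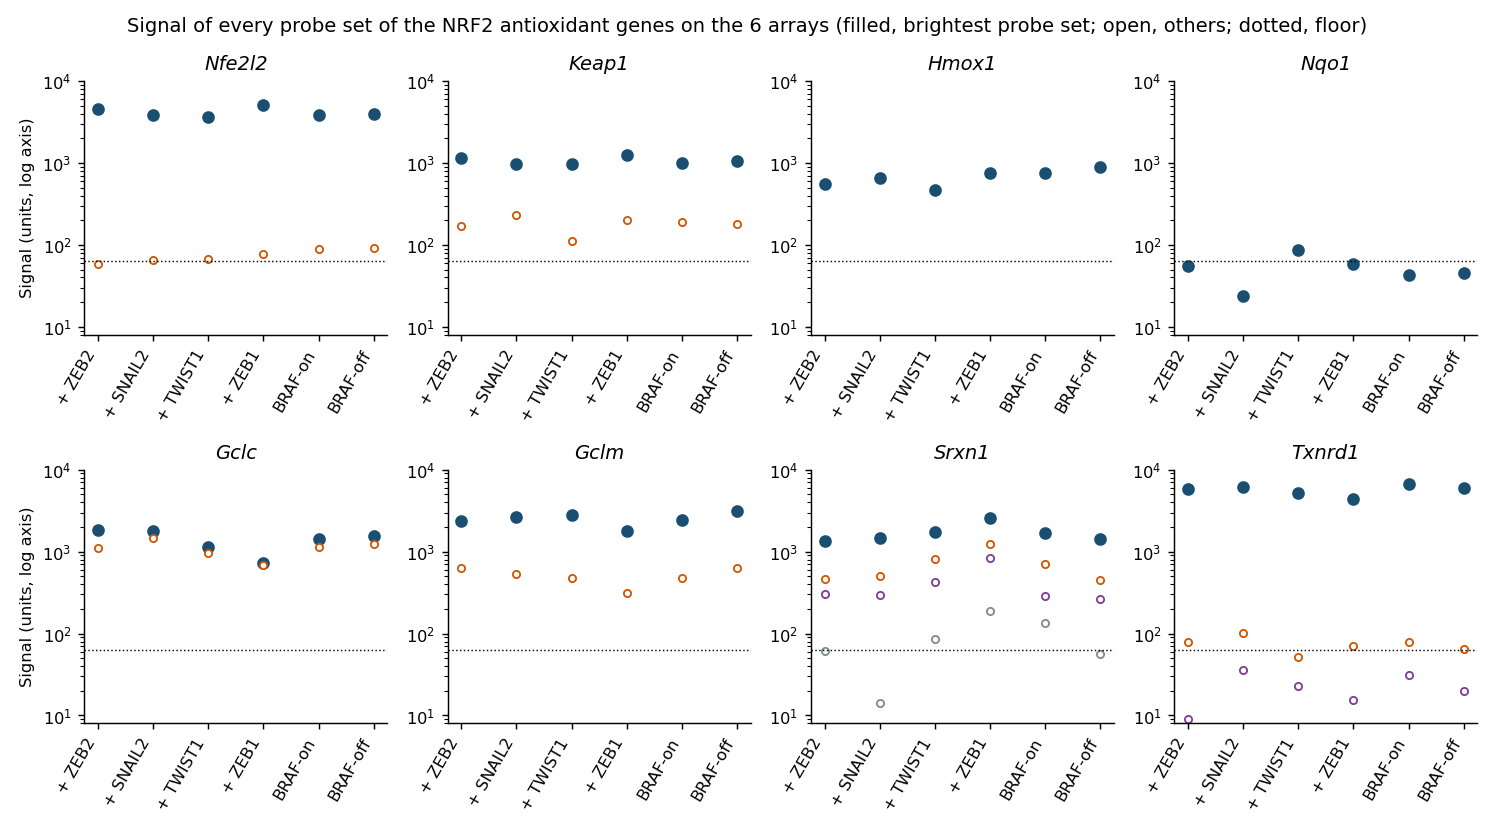
Signal in units on a log axis for every probe set of the 8 genes on the 6 arrays, each point being 1 array. The points of Gclc are lowest and those of Srxn1 highest with ZEB1 (733 and 2596 for the filled points), and Nqo1 crosses the floor of 63.7 with TWIST1 alone.

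Between BRAF-on and BRAF-off, all members that could be read lay within 2-fold by their brightest probe set. Nqo1 was under the floor on both arrays and could not be read. Of the 7 members entered in BRAF-on against BRAF-off (a gene is entered where at least 1 of its 2 arrays reaches the floor), none was at least 2-fold apart, against 1.42% of the 11200 genes entered. The median log2 ratio was -0.06 over the members and -0.00 over all genes. Gclm was the lowest at -0.36, with 7.25% of genes lower still, followed by Hmox1 at -0.22 and Gclc at -0.14. Srxn1 was the highest at 0.27, with 86.5% of genes lower. Its second probe set gave 0.64. Its dimmest one was at least 2.10-fold higher, BRAF-off being under the floor, and was the 1 probe set of 15 entered past 2-fold, against 1.17% of all probe sets.

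With ZEB2 none of 7 members was 2-fold apart from BRAF-on, against 2.34% of 11322 genes. Hmox1 was at -0.44 and Srxn1 at -0.35, with 7.84% and 12.0% of genes lower, and Gclc was the highest at 0.36. The second Gclc probe set was at -0.04, and the 2 Gclm probe sets were at -0.06 and 0.39. In this comparison none of the 5 members with several probe sets at or above the floor on both arrays had them all on 1 side of 0. How often this held over all genes was not counted. The members' median was -0.06. Melanocyte markers summed to 114119 with ZEB2 and 67003 in BRAF-on, and their part was not tested. Of 15 probe sets 1 was past 2-fold, against 2.10% of all: the dimmest of Srxn1, at least 2.10-fold lower. At 61.7 with ZEB2 it lay under the floor. Its BRAF-on signal of 133 was thus set against the floor, as in BRAF-on against BRAF-off.

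With SNAIL2 the count was again 0 of 7, on an array where 12.0% of 11416 genes were 2-fold apart from BRAF-on. The members lay between -0.22 (Srxn1) and 0.34 (Gclc), well inside the 5th to 95th percentile of all genes, -1.10 to 1.04. Both Gclc probe sets (0.34 and 0.39) and both Gclm ones (0.12 and 0.15) were above 0. The members' median was -0.05, against 0.06 for all genes. Melanocyte markers summed to 136532 with SNAIL2 and 67003 in BRAF-on, and their part was not tested. The dimmest Srxn1 probe set, at least 2.10-fold lower, was the 1 of 15 past 2-fold, against 11.4% of all probe sets. At 14.1 with SNAIL2 it too lay under the floor. This call, that with ZEB2 and that for BRAF therefore rest on the same BRAF-on signal of 133 and are not separate.

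With TWIST1 no member of 8 was 2-fold apart, against 4.05% of 11334 genes. Hmox1, at -0.71 or 1.63-fold under BRAF-on, was the only member at least 1.5-fold lower, where 6.28% of all genes were, and 4.26% lay lower than it. None was 1.5-fold higher (6.38% of all genes), and none of 16 probe sets was past 2-fold (3.63% of all). Txnrd1 was at -0.35 and Gclc at -0.31. Gclm was at 0.22, and Nqo1 was at least 1.36-fold higher. Fibroblast markers moved with this array: 6 of 7 reached the floor there against 4 of 7 in BRAF-on, and their summed signal was 15951 against 6710, with Lum under the floor on both. Melanocyte markers summed to 4920 with TWIST1 and to 67003 in BRAF-on. Their part in the Hmox1 value was not tested.

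The array with ZEB1 had the widest spread of members. None of 7 was 2-fold apart from BRAF-on, against 8.42% of 11614 genes, but Gclc was close at -0.95 (1.93-fold lower), with 4.47% of genes lower. By the 1.5-fold measure 2 members were lower, Gclc and Txnrd1 (-0.59), where 10.8% of all genes were, and 1 was higher, Srxn1 (0.61), where 14.8% were. Gclm was at -0.45 and Hmox1 at -0.01. The members' median was -0.01, against 0.07 for all genes. In this comparison 5 of the 6 members with several readable probe sets had them on 1 side of 0, a share not counted over all genes. Both Gclc probe sets (-0.95 and -0.71) and both Gclm ones (-0.62 and -0.45) were below 0. All 4 of Srxn1 were above 0, from 0.48 to 1.56. The Srxn1 probe set at 1.56 was the 1 of 15 past 2-fold, against 7.91% of all probe sets. Centring each array on its median lowered all log2 ratios here, by 0.13 in the median over all genes. It brought Gclc to -1.08 and Srxn1 to 0.48, and the share of 2-fold calls that were higher, over all genes, to 37.4% from 53.4%. The macrophage list had 3 of 7 markers at the floor on every array, with Adgre1, Ptprc, Cd14 and Fcgr3 under it. Its summed signal was 1193 with ZEB1 and 609 in BRAF-on. Melanocyte markers, all 8 at the floor on both arrays, summed to 28149 with ZEB1 and 67003 in BRAF-on. The part of either list in these values was not tested.

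**Figure D2:**
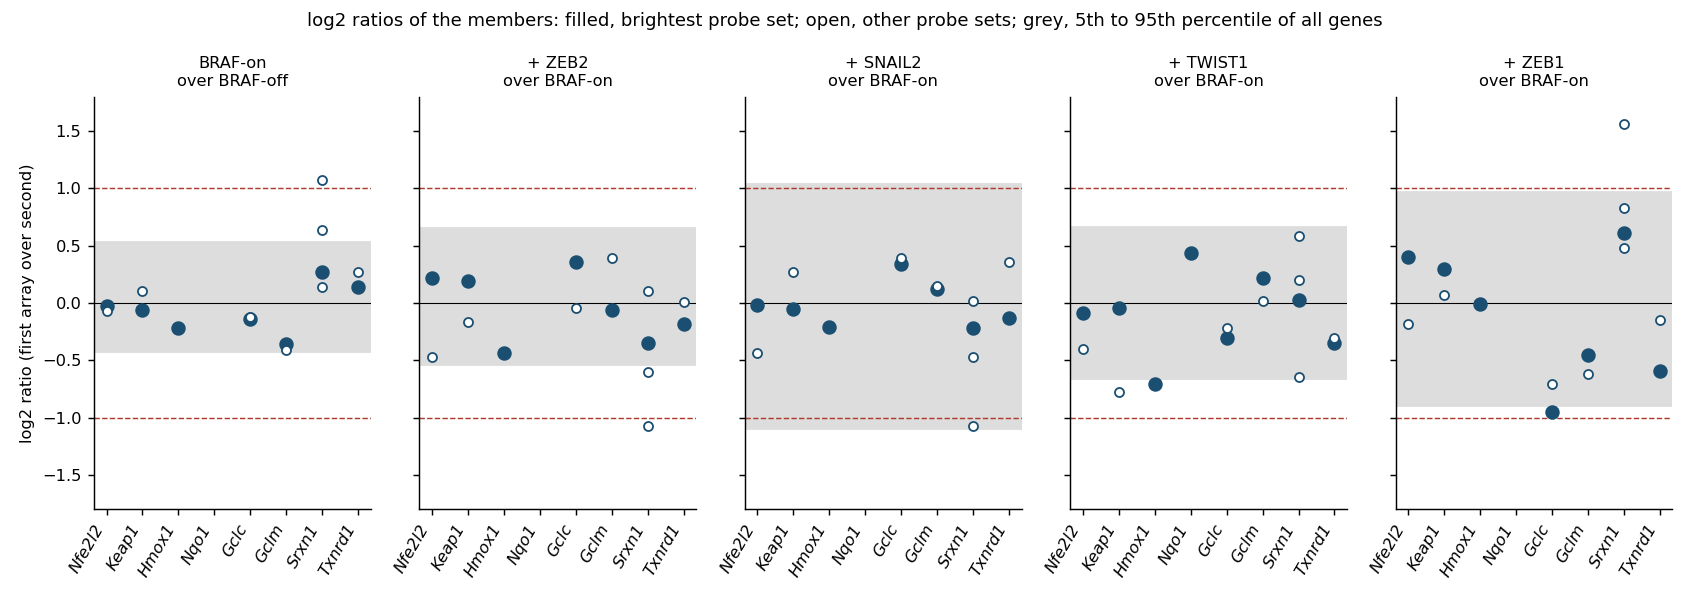
log2 ratios of the 8 genes in the 5 comparisons, first array over second. Filled points are the brightest probe set, open points the others, dashed lines 2-fold, and the grey band the 5th to 95th percentile of all genes. No filled point passes 2-fold, and with ZEB1 Gclc (-0.95) lies below the band while Srxn1 has an open point at 1.56.

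Against BRAF-off, Gclc was 2.13-fold lower with ZEB1, the 1 member of 7 past 2-fold, where 12.3% of all genes were (7.06% higher and 5.20% lower). The second Gclc probe set was 1.78-fold lower and did not pass. Gclm was at a log2 ratio of -0.81, Txnrd1 at -0.46 and Srxn1 at 0.88. Counted by probe set, 5 of 15 were 2-fold apart in this comparison, against 11.0% of all probe sets. These were 3 of Srxn1, all higher, and 1 each of Gclc and Gclm, both lower. For the dimmest Srxn1 probe set the BRAF-off signal, 56.2, was under the floor. With ZEB2, SNAIL2 and TWIST1 no member was 2-fold apart from BRAF-off, where 1.34%, 9.31% and 5.71% of all genes were. Hmox1 was the lowest member in each of these, at -0.67, -0.44 and -0.93 in that order. All 4 comparisons share the single BRAF-off array, on which Hmox1 and Gclm had their highest signal.

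**Figure D3:**
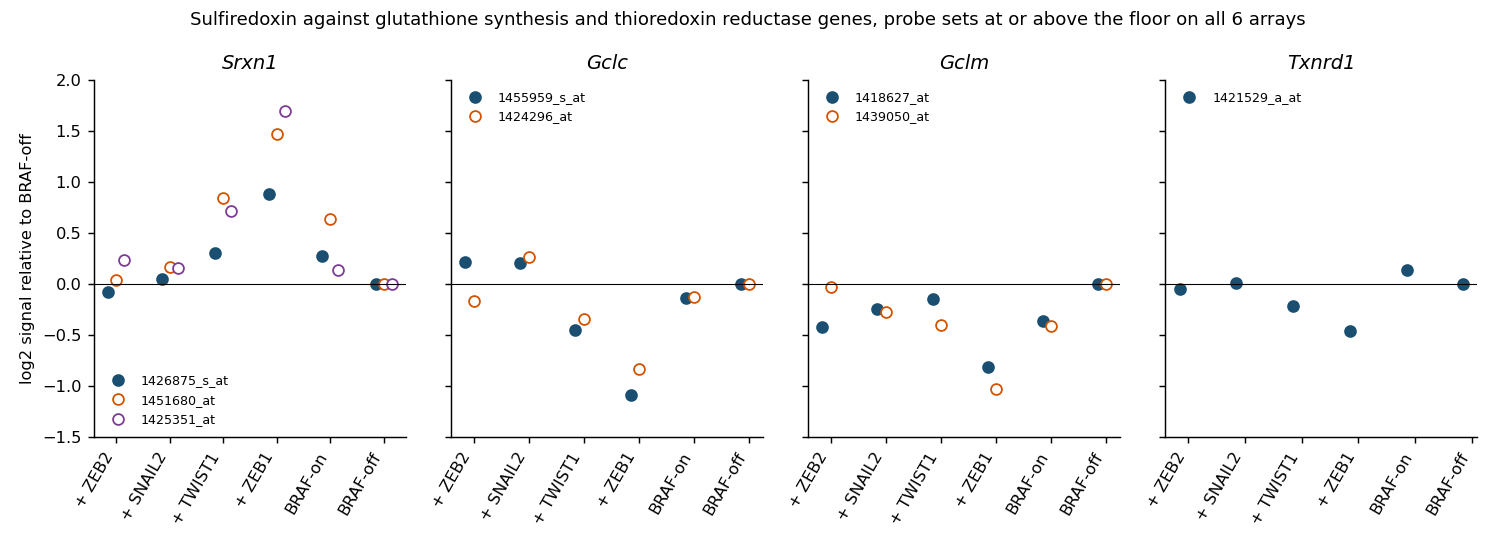
log2 signal relative to BRAF-off on the 6 arrays for the probe sets of Srxn1, Gclc, Gclm and Txnrd1 that reached the floor on every array, 1 point per array. The array with ZEB1 is the highest for all 3 Srxn1 probe sets drawn (0.88, 1.47 and 1.69) and the lowest for Gclc, Gclm and Txnrd1 (the brightest at -1.09, -0.81 and -0.46).

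The agreement of probe sets of 1 gene is the only repeat measurement these arrays hold. Over the 5 comparisons there were 28 cases in which a member had several probe sets at or above the floor on both arrays. In 17 of these they lay on 1 side of 0. The share over all genes with several probe sets was not counted, so 17 of 28 cannot be placed against it. Probe sets of 1 gene read the same RNA on the same array, so they repeat neither the hybridisation nor the culture. Of the members, Gclc alone had its brightest probe set at or above the floor on all arrays and a log2 range of at least 1. Among 3216 genes that met the same conditions, clone and model names left out, its pattern was most like those of Gas2l3, Sox11 and Pum2. Pearson's r over the 6 arrays was 0.997, 0.997 and 0.995, as a description of 6 points. These r values are the highest among those genes, so they are high by choice. Sox11, for example, was at 139 with ZEB1 against 407 in BRAF-on. The second Gclc probe set had another order, highest with SNAIL2 at 1470.

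The wider system was followed through 7 lists of 102 genes, of which 93 had a probe set. With BRAF activation 1 of 83 entered genes passed 2-fold upward, as 1.04% of all genes did, and none downward (0.384%). It was Mgst2, a microsomal glutathione transferase, at 1903 in BRAF-on against 943 in BRAF-off (log2 ratio 1.01). Of the 15 genes that supply NADPH 2 were above 0, with a median of -0.11, and of 10 haem and iron genes 2 were, with a median of -0.17, where 49.7% of all genes were above 0. Of 13 thioredoxin genes 9 were above 0, with a median of 0.07. The iron exporter gene Slc40a1 (-0.81) and the porphyrin transporter gene Abcb6 (-0.49) had the largest log2 ratios by size there. Akr1b8, an aldo-keto reductase, was at 3596 in BRAF-on against 2169 in BRAF-off (0.73).

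With ZEB2, Gsta2 was at 2017 against 642 (3.14-fold) and Gstm1 at 2184 against 1021 (2.14-fold), the 2 genes of 83 at least 2-fold higher, where 1.76% of all genes were. None was 2-fold lower (0.583% of all genes). Other transferase genes lay on either side of 0, Mgst2 at -0.84, Gsto1 at -0.37, Mgst3 at -0.20 and Gstm3 at -0.17, against Mgst1 at 0.50 and Gstp1 at 0.30. The transferases form families of close copies, so a probe set may read more than 1 of them. For Gstm1, 3 further probe sets were at 0.67, 0.69 and 0.70. Among the NADPH genes Idh1, a cytosolic isocitrate dehydrogenase, was at 0.85, and the detoxification list had a median of -0.18, with the carbonyl reductase gene Cbr3 lower by at least 1.93-fold.

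With SNAIL2, 6 of 84 listed genes passed 2-fold upward and 4 downward, as 5.61% and 6.42% of all genes did. Gstm1 was at 3668 against 1021 in BRAF-on (log2 ratio 1.85) and Gsta2 at 1544 against 642 (1.27), while Mgst2 was 4.33-fold lower, at 439.9 against 1903. Abcb6 (1.45) and Txnrd3, a relative of Txnrd1 that also reduces glutathione (1.21), were higher, and the further Txnrd3 probe sets were at 1.65 and 1.53. So were Gsk3b (1.04), a kinase that marks NRF2 for destruction, and Rbx1 (1.05), a subunit of the ligase that KEAP1 serves, which was dim at 134 against 64.9. The further Gsk3b probe sets ranged widely, at log2 ratios of 0.31, 0.33, 0.43 and 0.99, and at 493 against 175 signal units for the remaining one. Akr1b8 (-1.66), the aldehyde dehydrogenase gene Aldh1a1 (at least 2.53-fold) and Gpx8 (-1.23), a peroxidase of the endoplasmic reticulum, were lower. List medians lay on both sides of 0, at 0.43 for glutathione, 0.41 for NADPH supply, 0.34 for haem and iron and 0.21 for regulators, and at -0.14 for detoxification, -0.21 for thioredoxin and -0.26 for superoxide and peroxide.

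With TWIST1, 3 of 83 listed genes passed 2-fold upward and 1 downward, as 2.03% and 2.02% of all genes did. Gsta2 was the gene that was lower, at 78.5 against 642 in BRAF-on (8.18-fold lower). Slc7a11, the cystine importer subunit that feeds glutathione synthesis, was at 275 against 94.4 (2.91-fold higher), and its second probe set was at 0.83. Aldh1a1 was at 462 against 161 and Slc40a1 at 1399 against 559, log2 ratios of 1.52 and 1.32. The 7 list medians lay between 0.08 and 0.18.

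With ZEB1, 3 of 83 listed genes passed 2-fold upward and 3 downward, as 4.49% and 3.93% of all genes did. Iron handling held 3 of these 6. Slc40a1 was at 1654 against 559 in BRAF-on (2.96-fold higher) and its second probe set at 1.45. The transferrin receptor gene Tfrc was at 1659 against 4651 (2.80-fold lower), its dimmer probe set was at -0.58, and Abcb6 was 2.29-fold lower. Mgst2 was at 4567 against 1903 (1.26) and Sesn1, a sestrin that dampens growth signalling under stress, at 1218 against 550.5 (1.15), and a second Sesn1 probe set at 1.30. Mthfd1, a folate enzyme that yields NADPH, was at -1.20 and its other probe sets at -1.29 and -1.64. The NADPH list had a median of -0.23, the other lists between 0.04 and 0.27. Under centring all of these values shift down by the amount given above. Bach2, a repressor that competes at MAF-bound sites, was at 369 against 187 (0.98), and its dimmer probe sets were at 0.99 and 0.36.

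Values of Mgst2 and Akr1b8 are set beside those of Srxn1 here. Mgst2 read 1060 with ZEB2, 439.9 with SNAIL2, 1442 with TWIST1 and 4567 with ZEB1, against 1903 in BRAF-on and 943 in BRAF-off. Akr1b8 read 2255, 1138, 3464 and 6285 with the factors in that order, against 3596 in BRAF-on and 2169 in BRAF-off. For all 3 genes, Srxn1 by its brightest probe set, the array with ZEB1 was the highest, and BRAF-on was above BRAF-off and above the arrays with ZEB2 and SNAIL2. The Srxn1 probe set that read 287 in BRAF-on did not share this, at 308 with ZEB2 and 292 with SNAIL2. Mgst2 and Akr1b8 have 1 probe set each and were picked for this after their values were seen. Other listed genes had the same order of these arrays, among them Glrx, Glrx2, Mgst3, Gsto1, Gpx1, Prdx2, Sesn2 and Sod3. How many of all genes share it was not counted. With TWIST1 the 3 genes parted: Srxn1 was at 1740, above 1704 in BRAF-on, while Mgst2 and Akr1b8 were below BRAF-on.

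**Figure D4:**
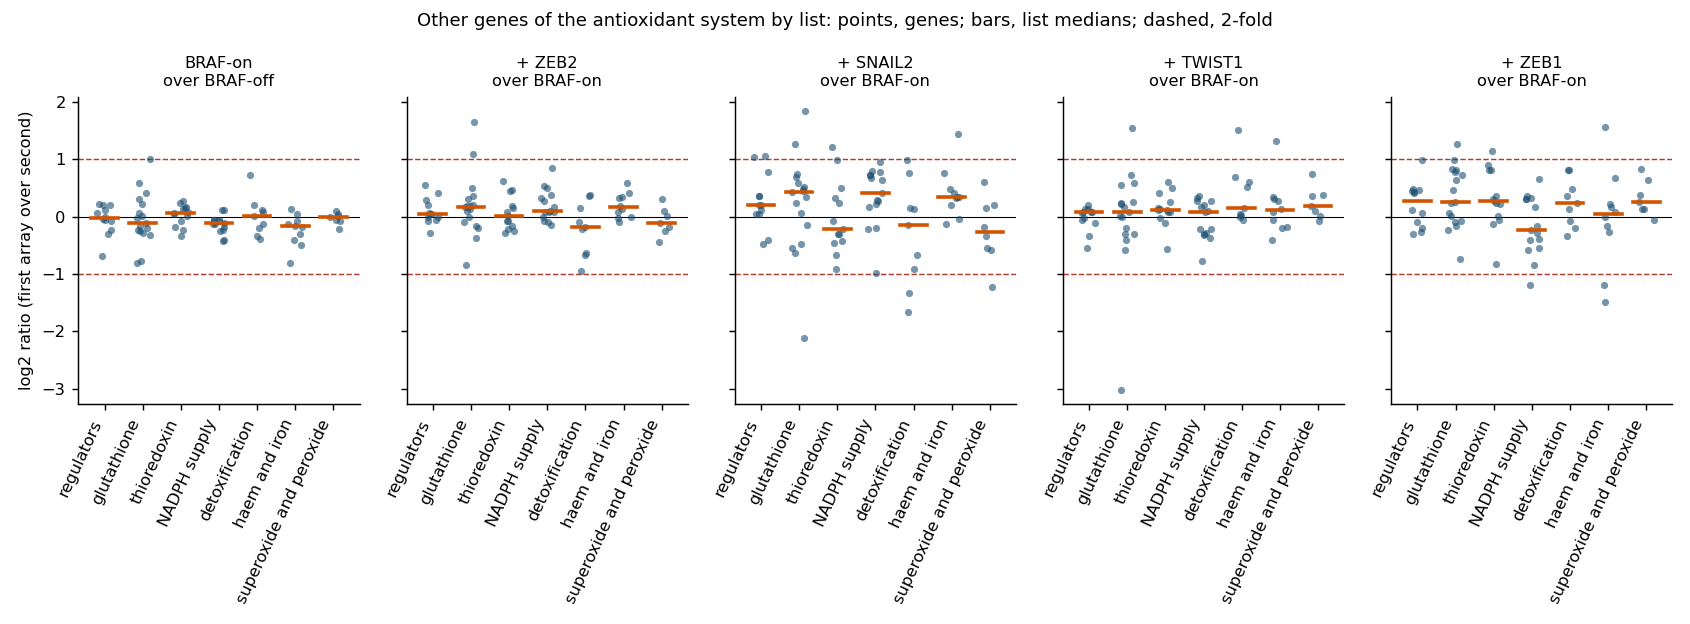
log2 ratios of the other antioxidant genes by list in the 5 comparisons, first array over second. Points are genes, bars list medians, and dashed lines 2-fold. With SNAIL2 6 points lie at or above and 4 below the 2-fold lines, and the lowest point is Gsta2 with TWIST1 (-3.03).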

How the data were processed

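Per the labels' protocols, RNA of 6 cultures was labelled with biotin and read on 1-colour Affymetrix mouse arrays. The authors deposited linear signal intensities, and the submitters' processing notes name MAS5 and Expression Console 1.1. A mean of 499.8 on every array, taken without 2% of probe sets at either end, shows that arrays were scaled. Of 45037 probe sets that were no controls, 34945 had 1 gene symbol, 932 several and 9160 none. Only the first kind was used, with symbols updated through a RefSeq table of GRCm38.p6, which held 34741 of them. The probe set with the highest mean in log2 stood for a gene.

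Values under the floor of 63.7 were raised to it before log2, and a ratio of at least 2-fold was counted. With 1 array per group no test was run, and the number of arrays limits the precision. The ratio step was tested on simulated arrays. The genes changed there all lay far above the floor, so changes that meet the floor were not covered. The genes and lists were chosen with earlier results of these data known. Alternatives changed the scaling, the floor, the fold and the choice of probe set. The text names all members and the 3 genes most like a member. List genes were drawn mostly from those at least 2-fold apart (up to 6 per list and comparison, otherwise the 2 largest). Not all of these are named: Rpe, 2.10-fold lower with SNAIL2 than in BRAF-off, is 1 left out. Gss, Gsto1, Mgst1 and Gstp1 were named outside that rule. Python 3.11.15, numpy 2.4.6, pandas 2.3.3 and matplotlib 3.10.9 were used.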

Additional observations from a re-analysis of the deposited data

How the results depend on the processing

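Of 12 alternatives, 10 were planned and 2 (the second-brightest probe set of each member, and every probe set counted by itself) were added after seeing the data. The median log2 ratio of the members moved by less than 0.329, the smallest SD of all genes' log2 ratios among the 5 comparisons, under all 10 alternatives run on it. It stayed below 0 for BRAF-on against BRAF-off (-0.12 to -0.03) and with TWIST1 (-0.26 to -0.02), and crossed 0 with ZEB2 (-0.17 to 0.06), SNAIL2 (-0.09 to 0.15) and ZEB1 (-0.15 to 0.15). The count of members 2-fold apart was 0 in each comparison as reported, and 51 of 60 recounts were 0 too. It was 1 (Srxn1) for BRAF-on against BRAF-off and with ZEB2, SNAIL2 and ZEB1 where every probe set was counted by itself. Of all probe sets 1.17%, 2.10%, 11.4% and 7.91% were past 2-fold there, in that order. All of these but the call with ZEB1 rest on the same BRAF-on signal of the dimmest Srxn1 probe set. It was 1 with TWIST1 without a floor (Nqo1, 1.03), where 22.5% of all genes were 2-fold apart. That ratio rests on 42.3 in BRAF-on, a signal under the floor. With ZEB1 it was 1 under centring (Gclc, -1.08), against 8.49% of all genes. With ZEB1 it was also 1 by the median of all probe sets (Srxn1, 1.19), against 8.53%. At 1.5-fold it was 1 with TWIST1 and 3 with ZEB1, where 12.7% and 25.7% of all genes were. Of 322 recomputed member ratios 19 moved by more than 0.329, each through another choice of probe set except Nqo1 with TWIST1 without a floor. Leaving out an array was not possible with 1 array per group. No paired analysis was possible because no group has a second array. Nqo1 and the dimmer probe sets of Nfe2l2, Txnrd1 and Srxn1 lie near the floor, where signals carry least weight.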

Other observations

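Besides the member Gclc, given above, the genes of the wider lists at least 2-fold apart between the array labelled ZEB1 and BRAF-off were these. Mgst2 was at 4567 with ZEB1 against 943 in BRAF-off (4.84-fold higher), Akr1b8 at 6285 against 2169 (2.90-fold) and Bach2 at 369 against 160.4 (2.30-fold), with its dimmest probe set at 86.0 against 86.9. Txnip, an inhibitor of thioredoxin, was at 3427 against 1657 (2.07-fold), and its second probe set at 471 against 341. Glrx, a glutaredoxin, was at 1386 against 654 (2.12-fold) and Mgst3 at 745 against 326 (2.29-fold). On the lower side Tfrc was at 1659 against 6159 (3.71-fold), Abcb6 at 274 against 882 (3.22-fold), Txnrd3 at 213 against 443 (2.08-fold), Mthfd1 at 1041 against 2576 (2.47-fold) and Gsta2 at 385 against 1118 (2.90-fold). Of 83 listed genes these are 6 upward and 5 downward, as for 7.06% and 5.20% of all genes.

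Gsta2 was at 2017 with ZEB2, 1544 with SNAIL2, 78.5 with TWIST1 and 385 with ZEB1, against 642 in BRAF-on and 1118 in BRAF-off. The array with TWIST1 was 14.2-fold under BRAF-off. Txn1, which encodes thioredoxin, was at 10802 with SNAIL2 against 19142 in BRAF-off, a log2 ratio of -0.83. Cbr3 was at least 2.43-fold lower with ZEB2 than in BRAF-off, and Aldh1a1 at least 3.31-fold lower with SNAIL2. Gstm3 was at least 2.42-fold higher with SNAIL2 than in BRAF-off.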
